A study of Mus musculus with 2 samples.

Results

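The genes described here form the central route of carbohydrate breakdown and its oxygen-dependent control: the steps of glycolysis, the enzymes that decide the fate of pyruvate, the citrate cycle, the pentose phosphate branch, and the hypoxia-inducible factor (HIF) system with a group of its targets. The list holds 47 genes. A gene counted as present on the array when a non-control probe carried its symbol, either through the accession in the scanner files or through their description. That gave 35 genes, each with 1 probe, and left 12 without one (Aldoc, Pgam1, Eno1, Pdk1, Egln1, Ndrg1, P4ha1, Ogdh, Sucla2, Fh1, Pgd and Taldo1). Of the 35, the spots of Suclg1 and Mdh2 were marked as outliers on 1 array each, and Egln3 was not well above background. The other 32 were measured, of 18511 genes or unnamed transcripts measured in all.

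Granulosa cells, which line the ovarian follicle and enclose its oocyte, were taken from female C57/Bl6 mice aged 23 to 25 days that had received PMSG, a gonadotropin from the serum of pregnant mares with the activity of follicle-stimulating hormone, for 48 h. The control mice were heterozygous for the gene of estrogen receptor beta (Esr2+/-, called het) and the others lacked it (Esr2-/-, called null), so the controls also carried 1 disrupted copy. The cells were pooled by genotype into 1 RNA sample each, and the number of animals in a pool is not given in the labels. Both samples were hybridised together to 2 two-colour Agilent arrays, with the null pool in Cy5 on array 1 and in Cy3 on array 2. Both arrays carry the same pair of RNA samples, so each SD below reflects labelling and hybridisation. Without replicate pools the difference between genotypes has no replicate check, and p-values are not given. Ratios are log2 null over het, which means that a negative value is a lower signal in the null pool. In RNA from whole cell pools, fewer cells of a type and less RNA per cell cannot be told apart.

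Glycolysis splits glucose into pyruvate in the cytosol, with preparatory steps that spend ATP and later steps that return it. Lactate dehydrogenase turns pyruvate into lactate, whereas the pyruvate dehydrogenase complex feeds it into the citrate cycle in mitochondria. HIF is a transcription factor whose alpha subunit is marked for destruction by oxygen-dependent prolyl hydroxylases, and many glycolytic genes are among its targets. In the ovarian follicle, which has no blood vessels inside the granulosa layer, granulosa cells are known for active glycolysis and supply the oocyte with pyruvate.

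The promoters of 4 genes are shown. Pgk1 and Aldoa had the lowest ratios, and Ldha and Ldhb, which encode the alternative subunits of lactate dehydrogenase, had ratios of opposite sign. Gapdh (-0.47) and Tpi1 (-0.45) had lower mean ratios than Ldha (-0.38), and their promoters are not printed. Each line gives the 250 bases before the start of a RefSeq transcript on GRCm38.p6, 5′ to 3′ on the gene's strand. For a gene with several start sites, the window with the most cores was taken. Capitals mark the core of the HIF response element, searched as ACGTG and GCGTG on both strands, so that the reverse complements CACGT and CACGC are also in capitals and overlapping copies merge into 1 run.
Pgk1 (chrX:106186850-106187099, + strand): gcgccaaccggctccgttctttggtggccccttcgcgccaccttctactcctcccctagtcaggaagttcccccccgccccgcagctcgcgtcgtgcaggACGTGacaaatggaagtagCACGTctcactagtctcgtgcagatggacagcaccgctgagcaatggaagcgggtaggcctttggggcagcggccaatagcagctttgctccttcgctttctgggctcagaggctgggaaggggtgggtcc
Aldoa (chr7:126799179-126799428, - strand, 1 of 3 start sites): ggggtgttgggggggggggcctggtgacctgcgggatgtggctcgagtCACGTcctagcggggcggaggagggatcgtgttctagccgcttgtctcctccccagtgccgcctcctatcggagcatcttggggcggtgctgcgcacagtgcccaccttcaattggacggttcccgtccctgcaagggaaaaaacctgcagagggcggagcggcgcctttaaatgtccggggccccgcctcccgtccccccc
Ldha (chr7:46845554-46845803, + strand, 1 of 2 start sites): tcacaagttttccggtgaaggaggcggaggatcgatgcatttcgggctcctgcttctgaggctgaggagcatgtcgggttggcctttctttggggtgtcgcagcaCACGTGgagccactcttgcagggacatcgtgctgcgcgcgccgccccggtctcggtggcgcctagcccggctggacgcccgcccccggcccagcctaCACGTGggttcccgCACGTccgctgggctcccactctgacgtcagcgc
Ldhb (chr6:142507958-142508207, - strand): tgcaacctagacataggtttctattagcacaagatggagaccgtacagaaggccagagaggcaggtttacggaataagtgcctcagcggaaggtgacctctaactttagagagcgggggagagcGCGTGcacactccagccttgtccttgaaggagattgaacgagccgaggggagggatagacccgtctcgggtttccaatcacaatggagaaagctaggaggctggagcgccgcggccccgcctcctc
The Pgk1 window held 2 ACGTG cores, the Aldoa window 1 and the Ldha window 5, counting both strands, so that each CACGTG counts on either strand. The other Ldha window, not printed, held no ACGTG and 1 GCGTG. Of the Aldoa windows not printed, 1 held neither core. The Ldhb window held no ACGTG and 1 GCGTG. Of the genes not printed, Gapdh had a window with no ACGTG and 2 GCGTG, and Tpi1 a window with neither core. Over all 47 genes, 45 had a window, and 39 of these had at least 1 window with either core. Of their 65 windows 80.0% held either core and 41.5% held ACGTG, against 38.6% and 16.6% of all 32851 promoter windows of the same length. Windows of 1 gene are not independent, since Ogdh gave 6, several overlapping and all with ACGTG. The share by gene was not taken over all genes. The windows of the listed genes were also richer in G and C, with a median of 60.4% against 52.4%. A match describes these letters only.

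On the arrays as a whole, between 87.2% and 95.1% of the 21318 non-control spots were well above background in each pool, and the ratios of the arrays correlated across genes, which are not independent replicates, with r = 0.32. The probe for Esr2 had -0.50 on array 1 and -0.46 on array 2. Where this probe lies with respect to the disrupted sequence was not determined, so it does not check the genotype. All 9 granulosa markers with a probe were measured, among them Fshr, Cyp19a1 and Inha. The log2 of their summed signal was 14.85 and 14.35 in the het pool and 13.51 and 13.76 in the null pool. By at least 1.2-fold on each array 3 (Cyp19a1, Inhba and Fst) were lower and 0 higher. Over all genes measured 1.09% met this rule downward and 1.7% upward. Inhba was the brightest of the 9 granulosa markers, with 14.26 and 13.64 in the het pool. By sign 7 of the 9 were negative on both arrays, Amh was positive on both (0.13 and 0.42) and Inha had -1.34 and 0.36. For 9 measured oocyte markers the log2 of the summed signal was 12.97 and 13.00 (het) and 13.86 and 13.51 (null). Of these markers 6 were higher, among them Gdf9, Zp2, Zp3 and Oosp1, and 0 lower. For 6 theca markers the log2 of the summed signal was 14.4 in the het pool and 13.9 in the null pool on both arrays. Among them Hsd3b1 was lower by the 1.2-fold rule. Hsd3b1 alone had 14.14 and 14.10 in the het pool, so the sum mostly follows this gene. No other theca marker met the rule. By sign 4 of the 6 were negative on both arrays, 1 had opposite signs, and Aldh1a1 was positive on both (0.45 and 0.08). The part of these shifts in the results below was not tested. Of 5 leukocyte markers with a probe 4 (Csf1r, Cd14, Cd68 and Lyz2) exceeded background clearly in every channel, with Lyz2 higher in the null pool (0.50 and 0.43), and Ptprc was not. The endothelial markers Egfl7, Kdr and Cdh5 were also well above background throughout, and Pecam1 was so on both arrays in the null pool only. Tek and Tie1 were so in neither pool on both arrays, and no endothelial marker met the 1.2-fold rule. Of 4 stromal markers measured, Dcn was higher (0.34 and 0.43) and 0 were lower.

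The enzymes Pgk1 and Aldoa of glycolysis were lower in the null pool on both arrays, and no gene of the set was higher by the same rule. Pgk1, which encodes the phosphoglycerate kinase that makes the first ATP of the pathway, was 1.61-fold lower, and Aldoa, the aldolase that splits the phosphorylated sugar, was 1.52-fold lower. The rule asked for 1.2-fold or more on each array with the same sign, and it was met by 2 of 32 measured genes downward and by 0 upward. Over all genes measured 1.09% met it downward and 1.7% upward. In the brightest of 4 equal groups of genes by signal, which holds 19 of the 32 and both that met the rule, the shares were 2.36% and 3.67%. No gene of the set reached the size rule of a 2-fold mean with 1.5-fold on each array, which 0.0918% of all genes met downward and 0.0378% upward. A count of 2 is small, and the values of the genes carry more than the count does.

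By direction alone, 13 of the 32 genes (40.6%) had negative ratios on both arrays, 5 (15.6%) had positive ratios on both and 14 had opposite signs. Among all genes 24.3% were negative on both and 22.7% positive on both. These counts depended on the normalization: with median centring in place of loess 7 of the 32 were negative on both arrays and 1 (Eno3) positive on both, against 7.98% and 7.89% of all genes. By loess, 11 of the 19 genes in the brightest group (57.9%) were negative on both arrays and 4 were positive on both. Of all genes of that group 25.8% were negative on both and 25.6% positive on both. The median log2 ratio of the 32 genes was -0.04, against -0.0038 over all genes, and the mean ratio of 13 genes lay within 0.1 of 0. The plot of ratios by gene gives each array's value.

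**Figure D1:**
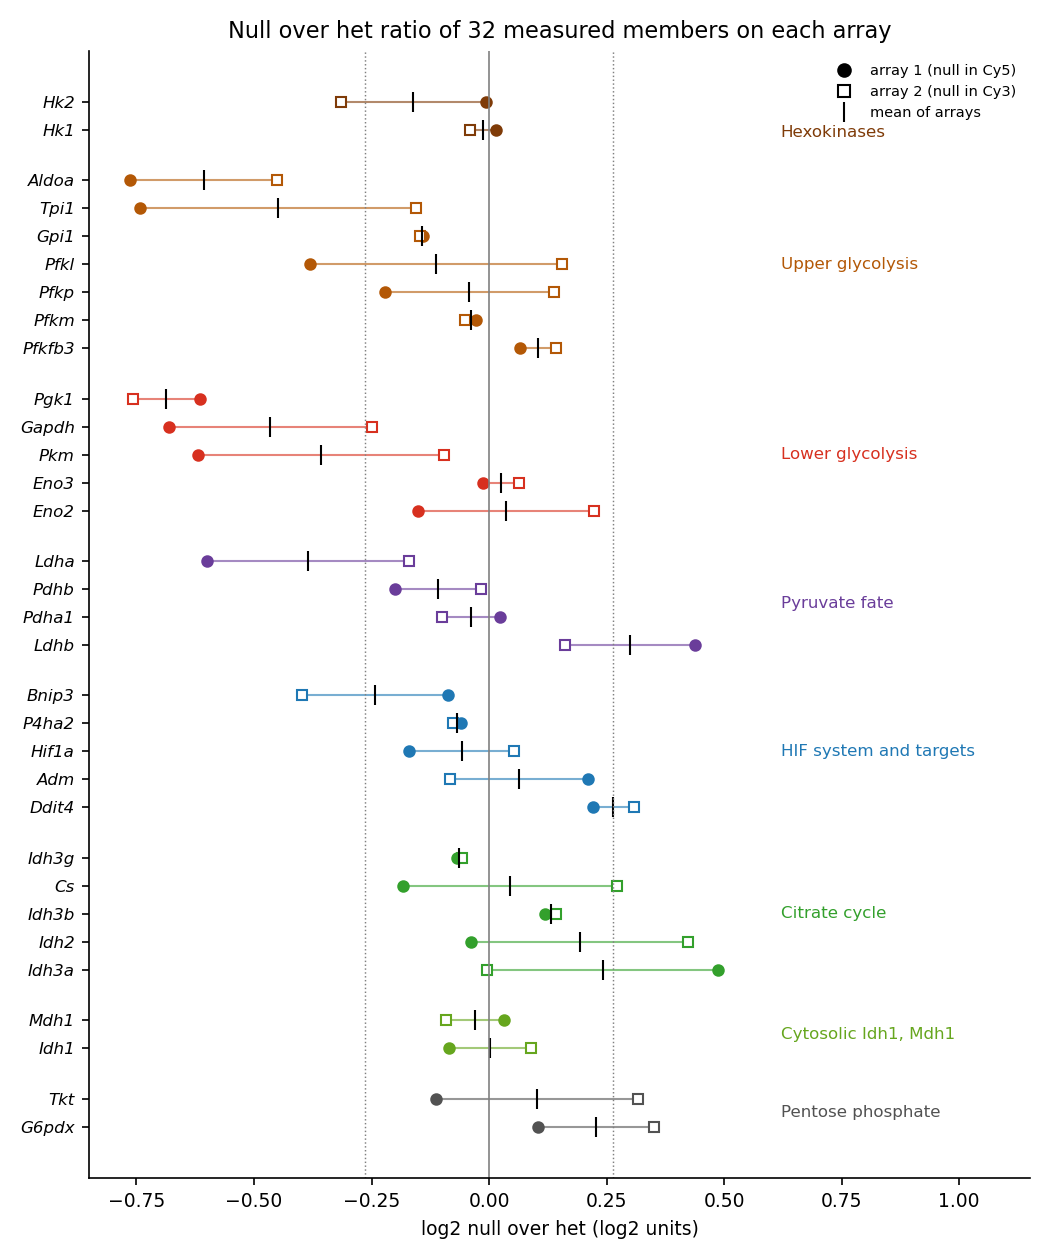
Log2 null over het ratio (x axis, log2 units) of the 32 measured genes by role, with filled circles for array 1, open squares for array 2 and a bar at their mean. Dotted lines mark 1.2-fold either way, and only Pgk1 and Aldoa lie beyond the left line on both arrays.

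Neither of the hexokinase genes, whose products trap glucose in the cell as glucose 6-phosphate, met the 1.2-fold rule. Hk1, the widespread form, had log2 signals of 6.26 in the null and 6.24 in the het pool on array 1, and 6.53 and 6.57 on array 2. Its ratio was -0.01 ± 0.04 (SD, n = 2 technical hybridisations). Hk1 was dim, where the background offset pulls ratios toward 0, and the scanner software's ratios were -0.18 and 0.04. Hk2, the form that HIF and insulin induce in other tissues, had 7.57 and 7.58 on array 1 and 7.34 and 7.65 on array 2. Its pools were alike on array 1 and apart on array 2, and the mean ratio was -0.16 ± 0.22.

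In the upper steps of glycolysis Aldoa was lower, and the phosphofructokinases did not share a direction. For Aldoa the log2 signal was 12.25 in the null and 13.01 in the het pool on array 1, and 12.20 and 12.65 on array 2. The null pool was lower on both arrays, and the mean ratio was -0.61 ± 0.22. For Tpi1, the triosephosphate isomerase gene, the signals were 10.39 and 11.14 on array 1 and 10.31 and 10.46 on array 2. Tpi1 was lower in the null pool on both arrays without meeting the rule. The ratio of -0.74 on array 1 was far larger than the -0.16 on array 2, and the mean was -0.45 ± 0.42.

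Gpi1, which encodes the isomerase after hexokinase, had 10.98 in the null and 11.12 in the het pool on array 1 and 10.86 and 11.00 on array 2. The arrays gave nearly the same small ratio, with a mean of -0.14 ± 0.01, but with median centring in place of loess they gave 0.35 and -0.74. The phosphofructokinase genes encode the liver (Pfkl), muscle (Pfkm) and platelet (Pfkp) subunits of the main control point of the pathway. Pfkl had -0.38 on array 1 and 0.15 on array 2, Pfkp had -0.22 and 0.14, and Pfkm had -0.03 and -0.05. The direction of Pfkl and Pfkp was therefore not settled. Pfkfb3, whose product makes the activator of phosphofructokinase, had 0.07 and 0.14. Of the 7 measured genes of this group 1 was lower by at least 1.2-fold on each array, 0 were higher, and the median was -0.11.

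In the lower steps of glycolysis 3 of 5 measured genes were negative on both arrays, and these were the widely expressed forms. The log2 signal of Pgk1 was 10.52 in the null and 11.14 in the het pool on array 1, and 10.30 and 11.06 on array 2. On both arrays the null pool was clearly lower (-0.62 and -0.76), and the mean ratio was -0.69 ± 0.10. For Gapdh, the glyceraldehyde-3-phosphate dehydrogenase gene often used as a reference in expression studies, the signals were 12.71 and 13.39 on array 1 and 12.62 and 12.87 on array 2. Again the null pool was the lower one on both arrays and the mean ratio was -0.47 ± 0.31, but the ratio of -0.25 on array 2 fell just short of 1.2-fold, which is 0.26 in log2 units. Gapdh was the closest gene outside the rule, and Aldoa, at -0.45 on its weaker array, was the closest inside it.

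Pkm, which encodes the pyruvate kinase of most tissues, had 8.99 in the null and 9.61 in the het pool on array 1 and 9.27 and 9.37 on array 2. Its ratio of -0.62 on array 1 was only -0.10 on array 2, with a mean of -0.36 ± 0.37. The enolase forms of neurons and muscle had opposite signs on the arrays. Eno2, a dim gene whose ratios the background offset pulls toward 0, had -0.15 and 0.22. By the scanner software's ratio it had -0.47 and 0.74. Eno3 had -0.01 and 0.06. The median of the 5 genes was -0.36, with -0.62 on array 1 and -0.10 on array 2, so array 1 carried most of it. Gapdh, Pgk1 and other glycolytic genes have many processed copies in the mouse genome, and the probe sequences were not used here, so signal from such copies cannot be told apart from that of the gene.

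**Figure D2:**
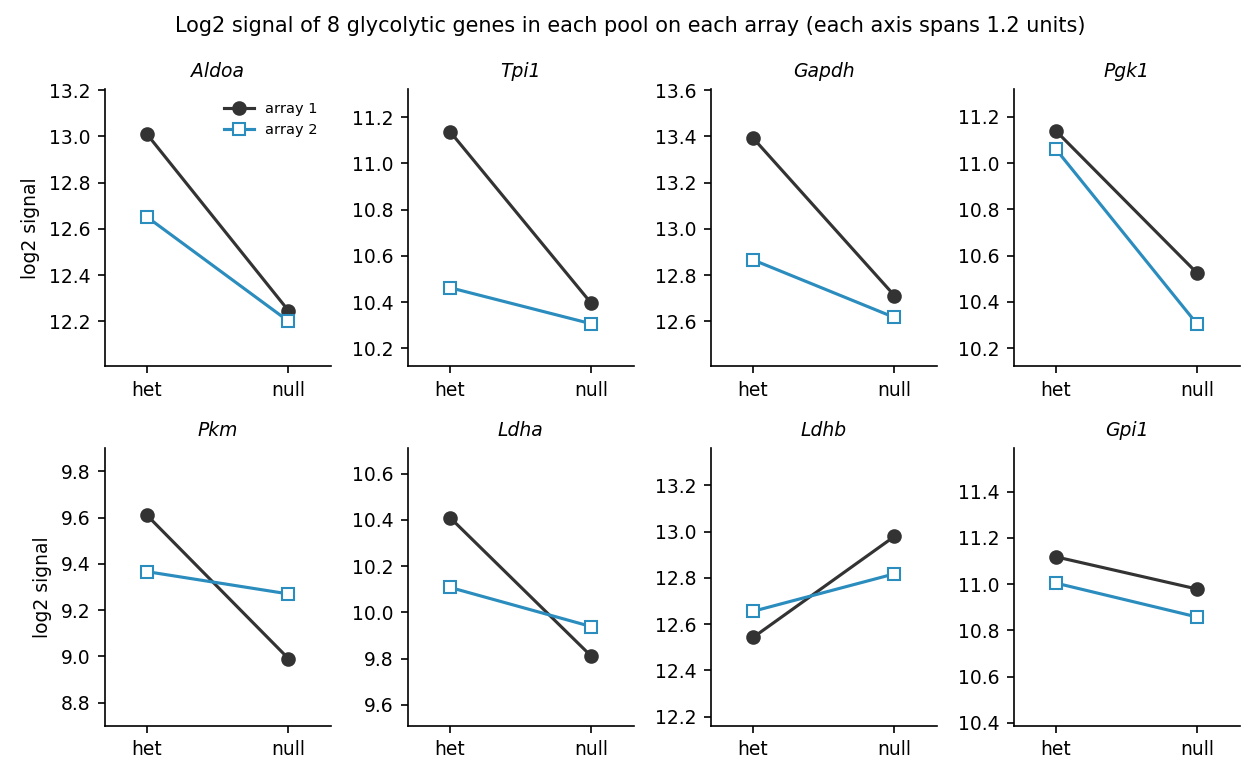
Log2 signal (y axis) of 8 glycolytic genes in the het and the null pool (x axis), with filled circles for array 1 and open squares for array 2, each line joining the pools on 1 array. Every panel spans 1.2 log2 units, and 7 genes slope down from het to null on both arrays whereas Ldhb slopes up.

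At the fate of pyruvate, the genes of the lactate dehydrogenase subunits had mean ratios of opposite sign. Ldha encodes the subunit that predominates in muscle and favours lactate formation, and Ldhb the subunit that predominates in heart. For Ldha the log2 signal was 9.81 in the null and 10.41 in the het pool on array 1, and 9.94 and 10.11 on array 2. For Ldhb it was 12.98 and 12.54 on array 1, and 12.82 and 12.66 on array 2. The null pool was thus lower for Ldha and higher for Ldhb on both arrays, with means of -0.38 ± 0.30 (1.31-fold) and 0.30 ± 0.19 (1.23-fold). Neither met the 1.2-fold rule, because array 2 gave -0.17 and 0.16. With median centring the sign of Ldhb differed between the arrays (0.98 and -0.50).

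The promoter windows printed above differ between these genes in the number of cores, and no relation to the ratios was tested. The pyruvate dehydrogenase subunit genes stayed near equality. Pdha1, for the alpha subunit of the first enzyme of the complex, had 0.02 and -0.10, and Pdhb, for its beta subunit, had -0.20 and -0.02.

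No gene of the HIF group met the 1.2-fold rule. Hif1a, which encodes the oxygen-regulated subunit, had log2 signals of 8.41 in the null and 8.58 in the het pool on array 1 and 8.55 and 8.50 on array 2. The sign of its ratio changed between the arrays, with a mean of -0.06 ± 0.16. Bnip3, a mitophagy gene induced by HIF, had 9.16 and 9.25 on array 1 and 8.93 and 9.33 on array 2. It was lower in the null pool on both, with a mean of -0.24 ± 0.22, but with median centring its sign differed between the arrays (0.31 and -0.88).

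Ddit4, which encodes an inhibitor of the growth kinase mTOR and responds to hypoxia and to other stress, had 9.82 in the null and 9.60 in the het pool on array 1 and 9.84 and 9.53 on array 2. The null pool was higher on both arrays, with a mean of 0.26 ± 0.06, but with median centring the sign differed between the arrays (0.65 and -0.22). Adm, the gene of the vasodilator peptide adrenomedullin, had 0.21 and -0.08. P4ha2, a subunit of the prolyl hydroxylase that modifies collagen, had -0.06 and -0.08. Egln3, 1 of the oxygen-sensing prolyl hydroxylases, was not well above background, and no fold is given. Over the 5 measured genes 0 met the 1.2-fold rule in either direction, 2 were negative on both arrays, 1 was positive on both, and the median was -0.06.

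No citrate cycle gene met the 1.2-fold rule, and the group had no common direction. The NAD-dependent isocitrate dehydrogenase is built from 3 kinds of subunit, and their genes did not share a direction. Idh3a, for the catalytic subunit, had log2 signals of 9.52 in the null and 9.03 in the het pool on array 1, and 9.43 and 9.44 on array 2. It differed on array 1 only, so the mean of 0.24 ± 0.35 rests on that array. Idh3b had 0.12 and 0.14 with a mean of 0.13 ± 0.02, and Idh3g had -0.07 and -0.06 with a mean of -0.06 ± 0.01. With median centring the signs differed between the arrays for Idh3b (0.48 and -0.28) and Idh3g (0.41 and -0.63).

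Idh2, the NADP-dependent mitochondrial enzyme, had -0.04 and 0.42, and Cs, the citrate synthase gene, had -0.18 and 0.27. Of the 5 measured genes 0 met the 1.2-fold rule, and the median of 0.13 was -0.04 on array 1 and 0.14 on array 2. Spots of 2 further genes were marked as outliers on 1 array and entered no count. On its unmarked array Suclg1, for the alpha subunit of succinyl-CoA ligase, had -0.08, and Mdh2, the mitochondrial malate dehydrogenase gene, had -0.18. The cytosolic enzymes of the same reactions were near 0, with Idh1 at -0.08 and 0.09 and Mdh1 at 0.03 and -0.09.

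For the pentose phosphate branch, which makes NADPH and ribose, 2 of 4 genes were measured. G6pdx, for the enzyme that opens the branch, had log2 signals of 9.01 in the null and 8.91 in the het pool on array 1 and 9.10 and 8.75 on array 2. The null pool was higher on both, with a mean of 0.23 ± 0.17, but with median centring the sign differed between the arrays (0.49 and -0.11). Tkt, the transketolase gene, had -0.11 and 0.32 and so no settled direction.

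The plot of array 1 against array 2 sets these genes among all others. Across the 32 genes, which share the arrays and RNA samples and are no replicates, the ratios of the arrays had Pearson's r = 0.49 and Spearman's rho = 0.39.

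**Figure D3:**
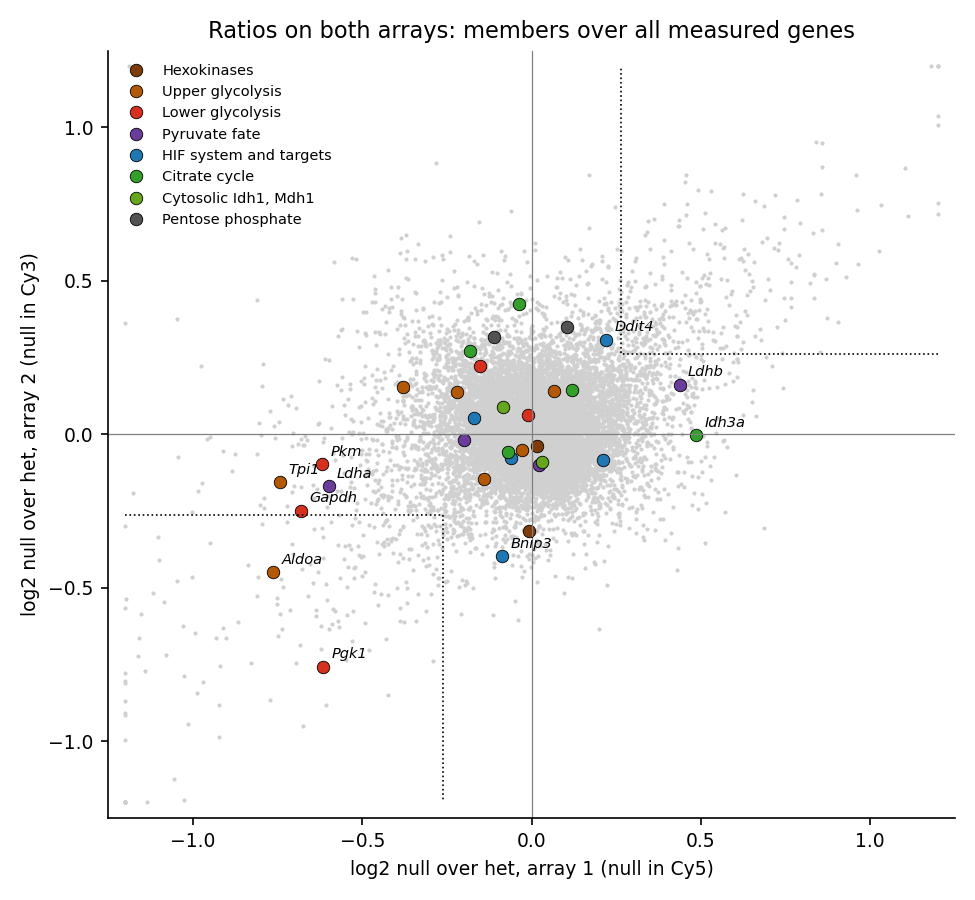
Log2 null over het ratio on array 1 (x axis) against array 2 (y axis) for all measured genes (grey, drawn at the edge beyond 1.2 either way) and the 32 genes of the set (coloured by role). Dotted corners enclose ratios of 1.2-fold or more on each array with the same sign, and Aldoa and Pgk1 are the only coloured points inside one.

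Of the 12 genes without a symbol on the array, 8 had a transcript whose description names the product, and these are given apart from the counts. AK002336, described as the non-neuronal enolase that Eno1 encodes, had log2 signals of 8.92 in the null and 9.96 in the het pool on array 1 and 9.30 and 9.37 on array 2. Its ratio of -1.05 on array 1 was -0.07 on array 2, the widest gap between arrays among these transcripts, with a mean of -0.56 ± 0.69. AK009905, described as the phosphoglycerate mutase of the Pgam1 gene, had 11.04 and 11.22 on array 1 and 10.52 and 10.85 on array 2, with a mean of -0.25 ± 0.11. It was lower in the null pool on both arrays.

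BC004754, described as similar to transaldolase, an enzyme of the pentose phosphate branch, had a mean of -0.22 ± 0.22. The aldolase C transcript AK005077 had -0.10 ± 0.01 and another, AI847350, had 0.0070 ± 0.11. NM_010884, described by the name of Ndrg1, a stress-response gene, had -0.10 ± 0.07, but -0.31 by the scanner software's ratio. The transcripts described as fumarate hydratase (BC006048, -0.06 ± 0.12), pyruvate dehydrogenase kinase (BC027196, 0.0043 ± 0.05) and oxoglutarate dehydrogenase (U02971, -0.01 ± 0.05) had mixed signs on the arrays. Another oxoglutarate dehydrogenase transcript, AK049272, was positive on both, with 0.13 ± 0.05 and 0.29 by the scanner software's ratio. A further hexokinase transcript, BC016235, had -0.04 ± 0.11. None met the 1.2-fold rule.

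Other genes of the same pathways were read from companion lists. Of 28 genes of glucose and lactate transport and of further glycolytic enzymes 17 were measured, with 2 lower and 1 higher by at least 1.2-fold on each array. For this and the other companion lists, the shares over all genes were 1.09% downward and 1.7% upward. Both lower genes encode monocarboxylate transporters, which carry lactate and pyruvate across the plasma membrane. Slc16a3 had log2 signals of 8.93 in the null and 9.51 in the het pool on array 1 and 9.02 and 9.59 on array 2, or 1.49-fold lower (-0.58 ± 0.01). Slc16a1 had 9.12 and 9.73 on array 1 and 9.12 and 9.61 on array 2, or 1.46-fold lower (-0.55 ± 0.08). For both transporters the arrays gave closely similar ratios by loess. Ratios of single companion genes under median centring are not given.

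The higher gene was Bpgm, for the bisphosphoglycerate mutase known mainly from red blood cells, with 8.13 in the null and 7.63 in the het pool on array 1 and 8.10 and 7.43 on array 2. The null pool was higher on both arrays (0.59 ± 0.11). Erythroid markers did not move one way, since all 4 measured had opposite signs on the arrays, with ratios of -1.19 and 1.40 for Hba-a1. The list of 23 companion genes of pyruvate and citrate metabolism had 11 measured. Of these Me1, for the cytosolic malic enzyme that makes NADPH, was lower (-0.32 ± 0.06) and 0 were higher. Of 19 measured companion genes of the HIF system and 6 of the pentose phosphate branch, 0 met the rule in either direction. The medians of the 4 companion lists were -0.0093, -0.01, -0.03 and 0.02 in that order.

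Pgk1 and Aldoa kept a negative mean ratio under every processing tried. Under each alternative with both arrays, Pgk1 lay between -0.74 and -0.68 and Aldoa between -0.66 and -0.60. Median centring in place of loess left both out of the 1.2-fold rule, because the ratio on array 1 shrank to -0.14 for Pgk1 and -0.22 for Aldoa while that on array 2 grew to -1.34 and -1.10. There the arrays correlated across genes with r = -0.69, and Tpi1 was the single gene of the set that met the rule. On array 1 alone 7 genes were at least 1.2-fold lower (Aldoa, Tpi1, Gapdh, Pkm, Pgk1, Ldha and Pfkl), and on array 2 alone 4 were (Pgk1, Aldoa, Bnip3 and Hk2). Over all genes 4.76% were so on array 1 alone and 2.38% on array 2 alone.

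**Figure D4:**
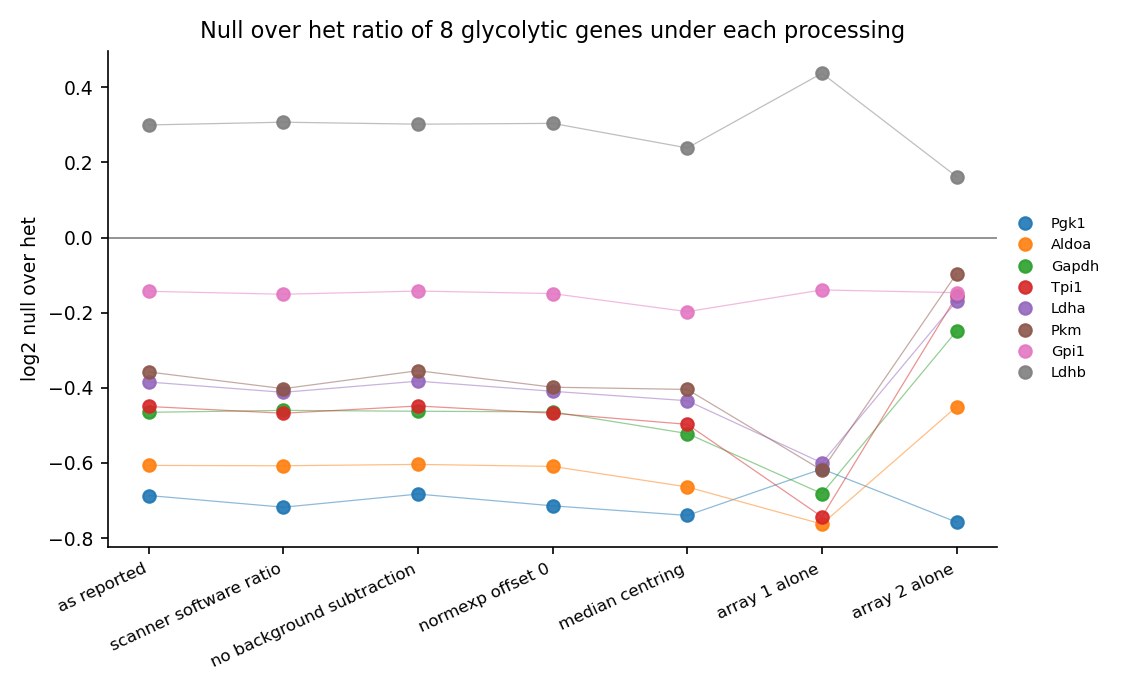
Log2 null over het ratio (y axis) of 8 genes under 7 kinds of processing (x axis), with points joined by gene. With both arrays averaged each gene keeps its sign and nearly its size, and with 1 array alone all except Pgk1 and Gpi1 move by more than 0.1 log2 units.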

How the data were processed

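RNA of 1 het and 1 null granulosa cell pool was set side by side on 2 two-colour Agilent arrays with the dyes exchanged. The deposited scanner files hold spot and background intensity per channel, made with Agilent Feature Extraction A.7.5.1 per the file headers. Their deposited LogRatio is log10 of red over green after spatial detrending and dye normalization, and the deposited p-value of each ratio covers measurement error of the spot. The deposited series table holds log2 red over green, which matched the scanner ratio within 0.001 for 99.8% of spots on both arrays, with medians of 0 and 0.0022.

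Mean intensity was corrected with normexp (median local background, offset 50) and normalized by loess within each array in limma 3.58.1 (R 4.3.3), with control spots at weight 0. Spots marked as outliers (58 and 95) were left out. Array 2 was turned in sign and the arrays averaged. The offset pulls dim ratios toward 0. Log2 signals were not scaled between arrays, so the pools are compared within each array. Levels of different probes were set side by side only in marker sums, in the brightness groups and in choosing a gene's brightest probe. A gene was measured when well above background in 1 pool on both arrays. Of 20868 probes, 8947 were named by accession and 1173 by description, through the RefSeq table of GRCm38.p6, which also gave the promoters. The brightest probe stood for a gene. The call rules were tested on simulated data. The list, roles, companion lists and rules were chosen with earlier results of these data known. Every measured gene of the set could be named, and companions only where they met the 1.2-fold rule (at most 4 a list) or where the text says otherwise. Markers outside the rule were also named, to show which were measured, moved the other way or differed between the arrays. Transcripts known by description, shares by brightness group and promoter windows were added after the data were seen.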

Additional observations from a re-analysis of the deposited data

How the results depend on the processing

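The 2 lower genes by the 1.2-fold rule, Pgk1 and Aldoa, met it in all alternatives except median centring, which gave 1 (Tpi1) and 7 genes negative and 1 positive on both arrays in place of 13 and 5. With offset 0 there were 3, Gapdh being added, and the scanner software's error-model p under 0.01 on both arrays also gave 2. Of all genes 2.26% were lower with offset 0, 0.73% under median centring and 0.49% by the error-model p. Array 1 alone gave 7 lower and 2 higher, against 4.76% and 4.58% of all genes. Array 2 alone gave 4 lower and 5 higher, against 2.38% and 5.23%. The median of all 32 genes, -0.04, ranged from -0.0765 to -0.0286 with 1 array alone, and adding the transcripts known by description, an alternative chosen after the data were seen, left 2 lower genes and a median of -0.05. With array 1 alone the medians of 3 small groups changed sign: hexokinases (-0.09) ranged from -0.18 to 0.0044, citrate cycle (0.13) from -0.0377 to 0.14 and pentose phosphate (0.16) from -0.0045 to 0.33 over the single arrays. The HIF group (-0.06) had -0.0717 with the scanner software's ratio and -0.0718 with the series table, -0.0855 under median centring, -0.0758 with offset 0, -0.0377 without the background filter, and -0.077 to -0.0599 with 1 array alone. The pyruvate group (-0.07) had -0.10 under median centring. The causes were not tested, apart from the inclusion of Egln3 without the filter. The 2-fold size rule gave 0 lower and 0 higher in every alternative. Neither Pgk1 nor Aldoa changed sign in any alternative. No paired analysis was possible because each genotype gave a single RNA sample. Signal over background limits the dim genes, such as Hk1 and Eno2.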

Other observations

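Some companion genes outside the rule for naming differed sharply between the arrays and are given as values, chosen after their values were seen. Gapdhs, the form of glyceraldehyde-3-phosphate dehydrogenase known from sperm, had a log2 null over het ratio of -0.71 on array 1 and 0.0042 on array 2. Plod2, a lysyl hydroxylase gene that HIF induces in other tissues, had -0.15 and 0.69. By contrast Gpd2, of the glycerol phosphate shuttle that carries cytosolic reducing power to mitochondria, had -0.37 and -0.23. Mif, a cytokine gene that HIF induces, had -0.44 and -0.20. None of these 4 met the 1.2-fold rule.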
